A study of Mus musculus with 6 samples.

Results

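The 10 immediate early genes Fos, Jun, Junb, Jund, Egr1, Ier2, Ier3, Btg1, Btg2 and Atf3 were examined in fetal livers of 3 Rb null and 3 wild type mouse embryos. All probe sets that the platform annotation assigns to 1 symbol among these genes were taken, which gave 15 of the 12422 probe sets that are not array controls. The embryos were untreated, came from matings of Rb heterozygous 129sv mice and were taken at embryonic day 12.5. Each liver was dissected, disaggregated in buffered saline and hybridised to 1 Affymetrix mouse array, which makes n = 3 embryos in each genotype. The sources used here do not give the Rb allele, the sex of the embryos or which of them were littermates. The livers are mixed tissue, in which fewer cells of a type and less RNA per cell cannot be told apart.

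Immediate early genes are transcribed within minutes of a stimulus such as a growth factor, a stress signal or handling of the tissue, from factors already present in the cell. Most of them encode short-lived transcription factors, and their transcripts are short-lived too. Fos and Jun proteins pair through leucine zippers to form the AP-1 factors, and Atf3, which is strongly stress-inducible, belongs to the same class of proteins. Egr1 is a zinc finger factor. Btg1 and Btg2 restrain proliferation and bring the deadenylase complex to messenger RNAs, and Ier3 is known to modulate cell survival.

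Of the 10 genes 8 were tested, of which 4 were called higher in Rb null livers and none was called lower. Among all tested probe sets 12.8% were called higher and 9.08% lower. The genes were chosen with earlier results of these data known, so these shares only describe them. Atf3, Ier3 and Btg1 rose 1.78-fold, 1.74-fold and 1.74-fold, and Ier2 rose 1.32-fold. Egr1, Junb, Jund and Btg2 were tested and did not pass, and Fos and Jun were too dim for the test. Folds are on the scale of log2 of the MAS5 signal plus an offset of 50.02, which understates the change of dim genes. Levels are MAS5 signals, given per embryo or as mean ± SD, and log2 fold changes are Rb null minus wild type ± SE.

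Regulatory sequence upstream of the start site is shown for Fos, Atf3, Ier3 and Btg1, the members with the largest differences, and for Btg2, the paralog of Btg1 that was not called. RefSeq promoters of GRCm38.p6 were found for 8 of the 10 members, and Egr1 and Ier2 were not among them. Each line gives the 200 bases before the start, 5′ to 3′. Capitals mark TGACGT, the short form of the cAMP response element, which CREB and ATF proteins bind, and TATAA, the core of the TATA box, on either strand.
Fos, chr12:85473690-85473889, plus strand: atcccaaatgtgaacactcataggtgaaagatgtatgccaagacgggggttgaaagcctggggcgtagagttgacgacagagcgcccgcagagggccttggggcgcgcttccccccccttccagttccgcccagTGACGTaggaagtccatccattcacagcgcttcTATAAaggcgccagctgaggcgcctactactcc
Atf3, chr1:191183334-191183533, minus strand: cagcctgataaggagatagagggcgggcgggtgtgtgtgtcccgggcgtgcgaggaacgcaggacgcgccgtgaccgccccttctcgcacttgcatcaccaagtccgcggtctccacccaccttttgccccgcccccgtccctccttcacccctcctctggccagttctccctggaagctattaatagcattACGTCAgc
Ier3, chr17:35821513-35821712, plus strand: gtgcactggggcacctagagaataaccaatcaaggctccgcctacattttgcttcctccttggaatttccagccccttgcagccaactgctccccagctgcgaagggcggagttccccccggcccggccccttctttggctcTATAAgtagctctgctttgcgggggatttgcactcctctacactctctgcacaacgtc
Btg1, chr10:96616801-96617000, plus strand: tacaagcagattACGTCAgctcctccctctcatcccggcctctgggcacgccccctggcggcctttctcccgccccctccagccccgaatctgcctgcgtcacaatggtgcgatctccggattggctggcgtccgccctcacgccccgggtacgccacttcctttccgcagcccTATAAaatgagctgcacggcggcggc
Btg2, chr1:134079156-134079355, minus strand: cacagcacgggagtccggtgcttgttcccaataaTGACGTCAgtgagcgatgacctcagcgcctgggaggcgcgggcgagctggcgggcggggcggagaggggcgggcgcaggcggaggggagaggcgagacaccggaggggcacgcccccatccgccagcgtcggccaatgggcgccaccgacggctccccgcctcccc

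The motifs were chosen after these sequences had been read and were searched on both strands, from 250 bases before to 50 bases after the start. TGACGT was found in 4 of the 8 member promoters (Fos, Atf3, Btg1 and Btg2) and in 7.51% of 32851 promoters of the same length. The whole palindrome TGACGTCA, which contains that short form, was found in Btg2 alone of the 8, and in 1.79% of all promoters. TATAA was found in 4 of the 8 (Fos, Ier3, Btg1 and Junb) and in 24.9% of all promoters, and CCAAT in 6 of the 8 and in 37.4%. The AP-1 site TGANTCA (7.81% of all promoters), the E2F site TTTNNCGC (5.17%) and the CArG box bound by SRF (1.63%) had no match in the 8 windows. Sites further from the start were not searched, and Egr1 and Ier2 had no window, so these genes may still have such sites. GCGNGGGCG, the site of Egr proteins, matched in Btg2 alone of the 8, and in 5.55% of all promoters. Of the 3 genes that rose and had a window, TGACGT lay in Atf3 and Btg1, TATAA in Btg1 and Ier3, and CCAAT in all 3. Each of these motifs also lay in a window whose gene was not called. For TATAA these were Junb, with the match on the start itself (bases 0 to 4), and Fos, which was not tested with the filter.

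The labels were checked with Rb1 itself, whose brightest probe set read 138.8, 141.6 and 127.4 in the Rb null and 790.6, 753.6 and 706.2 in the wild type livers. The sources used here do not say whether its probes lie in the deleted part. Array medians lay between 198 and 203 in Rb null and between 177 and 187 in wild type arrays, while trimmed means were equal. All 8 erythroid and all 10 hepatoblast markers on the array passed the signal filter.

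A probe set was tested when its mean signal over the 6 arrays was above 150.1, which held for 6793 probe sets and for 8 of the 15 member probe sets, 1 for each of 8 genes. In each of these 8 both genotype means were above that value, so none entered the test through 1 genotype. With limma and an adjusted p below 0.05 over all tested probe sets, 12.8% of them were called higher in Rb null livers and 9.08% lower. Among the 8 member probe sets 4 were higher and 0 were lower. At an unadjusted limma p below 0.05, 5 were higher, with Egr1 added, and 0 were lower. Without the signal filter limma gave 5 higher and 0 lower of the 15, where it called 5.88% of all probe sets higher and 3.39% lower. All Rb null embryos lay above all wild type embryos in 5 of the 8 and below them in 0, against 22.9% and 17.2% of the tested probe sets. The median log2 fold change of the 8 was 0.37, against 0.02 for all tested probe sets. Because the members were chosen with earlier results of these data known, these comparisons cannot test whether they differ from other genes. Of the 8, 5 had a mean signal up to 500.2 (the trimmed mean of an array), and of all tested probe sets in that range limma called 13.1% higher and 1.60% lower.

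**Figure D1:**
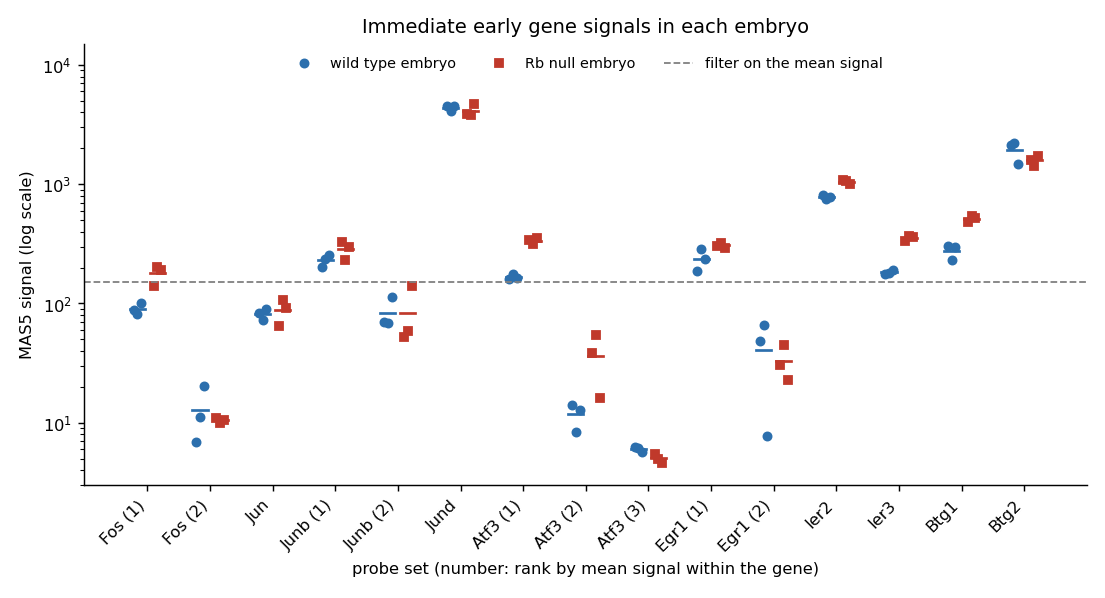
MAS5 signal (log axis) of the 15 member probe sets in each embryo, with 3 wild type (circles) and 3 Rb null embryos (squares); short bars are means and the dashed line is the filter of 150.1. The squares of Atf3 (1), Ier3, Btg1, Ier2, Egr1 (1) and Fos (1) all lie above the circles, whereas those of Junb, Jund, Jun and Btg2 overlap them; levels of different probe sets are not comparable.

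Of the AP-1 genes, Atf3, a repressor and activator induced by many stresses, had the largest rise. Its bright probe set read 339, 312.5 and 352.8 in the Rb null livers and 159.7, 175.2 and 162.1 in the wild type livers. The groups did not overlap, and the spread within each genotype was small beside the gap between them. The log2 fold change was 0.83 ± 0.10 (limma adjusted p = 0.0010), which ranked 90th by absolute size among the 6793 tested probe sets. The suffix of this probe set's name marks probes that can also bind related transcripts. The other Atf3 probe sets were below the filter. One read 38.7, 54.5 and 16 against 14.2, 8.4 and 12.8, again with the Rb null embryos above, and the other read 5.5, 5 and 4.6 against 6.3, 6.1 and 5.7, with the Rb null embryos below. At such levels no transcript was shown to be present. Atf4, a factor known to act upstream of Atf3 in the integrated stress response and named after its value was seen, read 3734 ± 372 against 3668 ± 156 (0.02 ± 0.08, limma adjusted p = 0.87). This is a transcript level, and the activity of the integrated stress response was not tested.

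Fos, the founding partner of Jun in AP-1, had a mean signal of 134 and was not tested with the filter. Its brighter probe set read 141.4, 202.8 and 191.1 in the Rb null and 87.5, 82.4 and 100.3 in the wild type livers, so the groups did not overlap. Of the probe sets below the filter, 12.0% had all Rb null embryos above all wild type embryos. With no filter the log2 fold change was 0.70 ± 0.15 (limma adjusted p = 0.032), at a setting where 5.88% of all probe sets were called higher. That call held without Rb null embryo 1 (adjusted p = 0.039) and was lost on leaving out any other embryo, with adjusted p = 0.11 without Rb null embryo 2, adjusted p = 0.092 without Rb null embryo 3 and adjusted p = 0.092, 0.080 and 0.069 without wild type embryos 1, 2 and 3. It was also lost with quantile normalization (0.59, adjusted p = 0.074), with cyclic loess (0.59, adjusted p = 0.073) and with median scaling (0.60, adjusted p = 0.051). It held in 3 of 12 alternatives, whose adjusted p values ran from 0.028 to 0.11. The other Fos probe set read between 6.9 and 20.3 in the 6 livers, with overlapping groups.

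The Jun family showed no called difference. Junb, a Jun protein that often opposes Jun, was read by a probe set whose name also has a suffix letter. It gave 329.4, 232.5 and 298.4 in the Rb null and 202.6, 237.7 and 255.9 in the wild type livers. The groups overlapped, and the log2 fold change was 0.25 ± 0.14 (95% interval -0.06 to 0.56, limma adjusted p = 0.23). Its second probe set stayed below the filter, from 52.4 to 140.3. Jund, the family member made at a steady level in most cells, read 3901.4, 3811.7 and 4682.1 against 4515.6, 4117.9 and 4564.7. Its log2 fold change of -0.09 ± 0.08 had a 95% interval of -0.29 to 0.10, so a change as large as that of Atf3 lay outside the interval. Its direction depended on the scaling, at 0.03 after quantile normalization and after cyclic loess. Jun itself read 65.2, 107.6 and 91.2 against 83.4, 73.3 and 89.7, below the filter and with overlapping groups.

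Egr1, a zinc finger factor induced by growth signals and by mechanical stress, read 306.2, 324.6 and 290.9 in the Rb null and 186.2, 285.1 and 237.8 in the wild type livers. All Rb null embryos were above all wild type embryos, which held in that direction for 22.9% of the tested probe sets. The log2 fold change was 0.33 ± 0.13 (95% interval 0.02 to 0.64), and it did not pass the adjustment (limma adjusted p = 0.12). Without wild type embryo 2, the highest of its genotype, it was 0.45 and passed (adjusted p = 0.045), the lowest of adjusted p values that reached 0.29 over its 16 alternatives. The second Egr1 probe set was below the filter and overlapped, between 7.8 and 66.4.

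Both Ier genes rose. Ier3, a regulator of survival under stress, read 337.4, 366.7 and 364.2 in the Rb null and 176.1, 180 and 192.7 in the wild type livers. No embryo of one genotype came near the other, and the log2 fold change was 0.80 ± 0.09 (limma adjusted p = 0.00099), the 108th largest of the tested probe sets. Ier2, a small nuclear protein, read 1082.5, 1065.1 and 995.1 against 815.2, 747.9 and 778.1, again without overlap. Its log2 fold change was smaller, at 0.40 ± 0.07 (limma adjusted p = 0.0046).

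Of the Btg paralogs, Btg1 rose and Btg2 did not pass the test. Btg1 read 483.2, 541.5 and 523.2 in the Rb null and 302.7, 231.1 and 297.2 in the wild type livers. The groups did not overlap, with a log2 fold change of 0.80 ± 0.11 (limma adjusted p = 0.0022). Btg2, which is also a target of p53, read 1581.7, 1435.7 and 1732 against 2144.2, 2208.9 and 1467.2. The groups overlapped because wild type embryo 3 lay among the Rb null embryos, and the log2 fold change was -0.27 ± 0.15 (95% interval -0.60 to 0.07, limma adjusted p = 0.24). Without wild type embryo 3 it was -0.45 and passed (adjusted p = 0.017), the lowest of adjusted p values that reached 0.48 over its 17 alternatives. The log2 signal of Btg1 minus that of Btg2, compared after the values were seen, was -1.53 ± 0.17 in the Rb null and -2.59 ± 0.44 in the wild type livers (SD, n = 3). This difference of 1.06 had an exact permutation p = 0.1, two-sided. That is the smallest value that 3 against 3 embryos allow, so the test could not decide whether the paralogs differ.

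**Figure D2:**
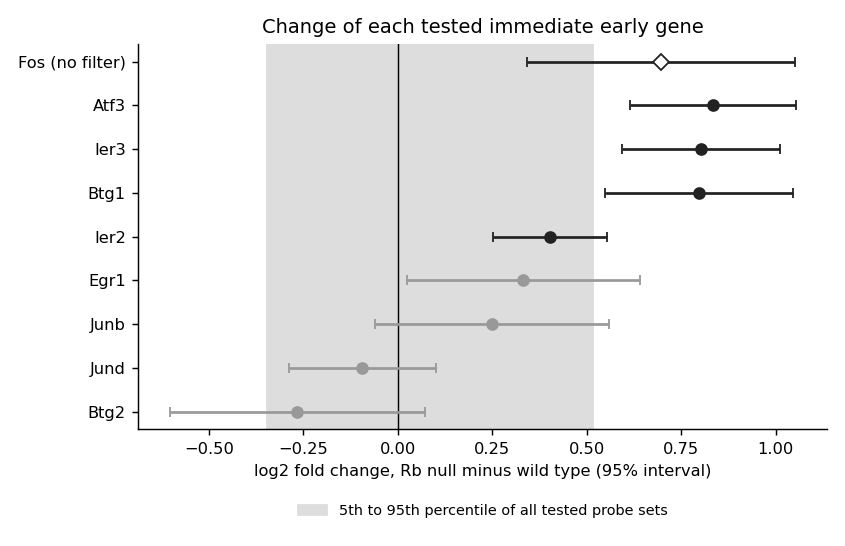
Log2 fold change (Rb null minus wild type) of the 8 tested members and of Fos without the filter, with 95% intervals from limma; black filled points passed the adjusted threshold, grey points did not, and the diamond is Fos. The grey band, from -0.35 to 0.52, spans the 5th to the 95th percentile of all tested probe sets; Atf3, Ier3 and Btg1 lie beyond it with their whole intervals, while the point of Ier2 lies inside it.

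The rises did not rest on 1 embryo. Each Rb null embryo was the highest of its genotype for 2 or 3 of the 8 tested probe sets, and so was each wild type embryo. The median deviation of an embryo from its genotype mean over the 8 lay between -0.03 and 0.04 on the log2 scale. The rises of Atf3, Ier3, Btg1 and Ier2 held on leaving out any 1 embryo, with limma adjusted p values of at most 0.0076, 0.0078, 0.014 and 0.023.

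Related genes were read from lists, with each gene standing by its brightest probe set, where limma called 13.1% of 5273 tested genes higher and 9.50% lower. Of 23 tested other immediate early genes 7 were higher, 1 was lower and 15 did not pass, and their median log2 fold change was 0.25. The largest rises were those of Phlda1, which restrains growth signalling, from 161 ± 15.4 to 373 ± 31.4 (1.00 ± 0.11, limma adjusted p = 6.4e-04), and of Plk2, a stress-inducible kinase (0.83 ± 0.09). Dusp6, a phosphatase that is induced by and switches off ERK kinases, rose from 491 ± 23.4 to 867 ± 40.3 (0.76 ± 0.07, limma adjusted p = 4.3e-04). Zfp36l1, which promotes decay of AU-rich messenger RNAs, rose by 0.58 ± 0.12 on the log2 scale.

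Of 17 AP-1 and Egr relatives on the array 8 were below the filter, Egr2 among them. Egr3 and Egr4 were not found on the array, so this list tested no Egr gene. Of the 9 tested relatives 1 was higher and none was lower, with 8 not passing and a median of 0.02. The gene that passed was Nab1, a co-repressor of Egr proteins (0.26 ± 0.06, limma adjusted p = 0.015). That call was lost after median scaling (0.13, adjusted p = 0.17), without Rb null embryo 2 (adjusted p = 0.055) and without wild type embryo 3 (adjusted p = 0.054). Atf2, a partner of Jun, had a log2 fold change of 0.36 ± 0.11 (limma adjusted p = 0.054) and passed when embryo 1 of either genotype was left out (adjusted p = 0.031 without the Rb null and adjusted p = 0.048 without the wild type embryo).

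Upstream of these genes, ERK kinases act on Fos and Egr1 through the ternary complex factors and SRF. Of 16 tested genes of SRF, its partners and the MAP kinase cascades, 1 was higher, 1 was lower and 14 did not pass (median 0.11). Map2k1, a kinase that activates ERK, rose from 721 ± 54.2 to 981 ± 69.7 (0.42 ± 0.08, limma adjusted p = 0.0090). Map2k2, which also activates ERK, went the other way and did not pass (-0.18 ± 0.09, limma adjusted p = 0.21). Map2k3, a kinase that activates p38, fell from 3437 ± 38.4 to 2393 ± 137 (-0.51 ± 0.06, limma adjusted p = 8.5e-04). Map2k6, which also activates p38, had a positive change that did not pass (0.26 ± 0.11, limma adjusted p = 0.14).

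Of 9 tested relatives and partners of the Btg proteins 3 were higher and none was lower (median 0.09). They were the deadenylase subunits Cnot6l (0.59 ± 0.13, limma adjusted p = 0.015) and Cnot7 (0.33 ± 0.10, adjusted p = 0.044) and the antiproliferative relative Tob1 (0.28 ± 0.07, adjusted p = 0.032). The wild type mean of Cnot6l, 144 against 241 in Rb null livers, lay below the filter, so this gene entered the test only through the genotype in which it was high. Leaving out any 1 embryo ended the Cnot7 call (adjusted p from 0.064 to 0.12), which was lost in 11 of 16 alternatives. The Tob1 call was lost without any embryo except wild type embryo 3 (adjusted p from 0.068 to 0.081) and after median scaling (0.15, adjusted p = 0.26). With no filter (adjusted p = 0.053) and no intensity trend (adjusted p = 0.052) the call was lost too, or in 8 of 17 alternatives. For Cnot6l it ended on leaving out Rb null embryo 1 (adjusted p = 0.0588), Rb null embryo 2 (adjusted p = 0.0589), or embryo 3 of the wild type (adjusted p = 0.0504).

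**Figure D3:**
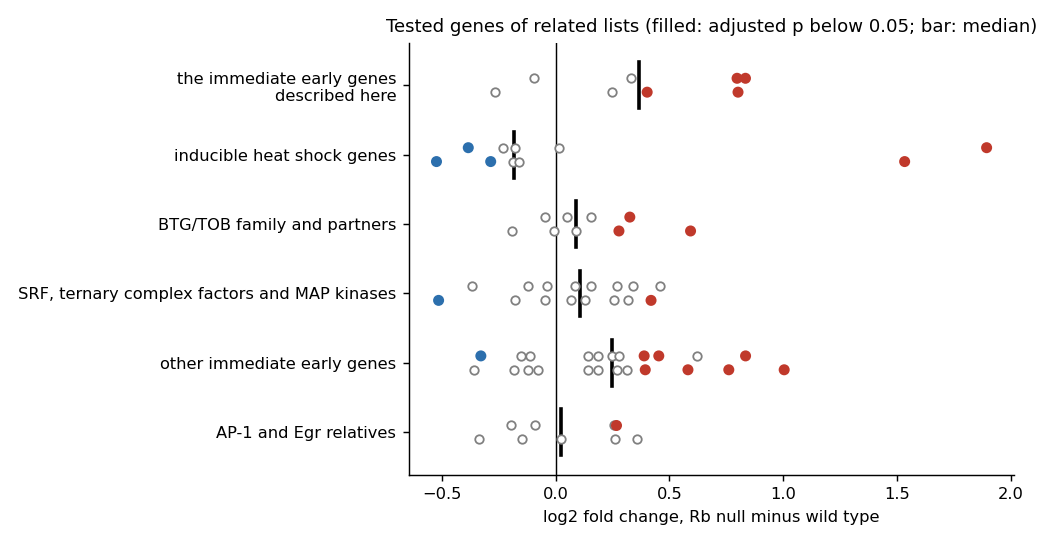
Log2 fold change (Rb null minus wild type) of the tested genes of 5 related lists and of the 8 tested members in the top row; filled points passed the adjusted threshold (red higher, blue lower), open points did not, and bars are medians. The medians were 0.37 for the members, 0.25 for the other immediate early genes and -0.18 for the inducible heat shock genes.

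Handling and stress can induce heat shock genes as well as immediate early genes. Of 10 tested genes listed as inducible heat shock genes 2 were higher, 3 were lower and 5 did not pass (median -0.18). Some genes of this list read far above the filter in wild type livers. Hspa1a, a stress-inducible chaperone, rose from 62.4 ± 22.5 to 363 ± 26.8 (1.89 ± 0.16) and its near copy Hspa1b from 104 ± 14.3 to 395 ± 19.7 (1.53 ± 0.11), both from wild type means below the filter. These near-identical genes can share signal. The co-chaperone genes Hsph1 (-0.52 ± 0.06) and Dnaja1 (-0.38 ± 0.06) fell. So did Hspa8 (-0.29 ± 0.07), which read 6590 ± 301 in wild type and 5408 ± 450 in Rb null livers. The part of tissue handling in the immediate early gene values was not tested.

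Only some markers of minor cell types of the liver were called, and those lay in the same direction as the members that rose. Higher calls were 4 of 10 tested macrophage, 5 of 9 granulocyte, 3 of 4 megakaryocyte, 2 of 7 endothelial and 3 of 6 mesenchyme and stellate markers. No marker of these lists was called lower. Among those that did not pass, C1qc (-0.05), Elane (-0.03) and Lcn2 (-0.11) had negative changes. Summed signals were 6547 to 7098 in Rb null and 5701 to 6045 in wild type livers for macrophage markers, and 12258 to 12504 against 9644 to 9801 for granulocyte markers. They were 2625 to 3015 against 1568 to 1699 for megakaryocyte, 4668 to 5093 against 3927 to 4160 for endothelial and 10574 to 12221 against 8547 to 9023 for mesenchyme and stellate markers. Of the erythroid markers 7 of 8 were lower, with sums of 47798 to 53404 against 62512 to 67594. Of 10 hepatoblast markers 1 was higher and 2 were lower, with sums of 38896 to 41483 against 41299 to 44758. No marker on the array was listed at 0. The part of these cell types in the rises of Atf3, Ier3, Btg1 and Ier2 was not tested.

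Profiles over the 6 arrays, each centred on its own mean, were compared between 5 members and all tested genes by the root mean square of their log2 differences, as a description. Nearest to Fos were Fgfr1 (0.060), Pafah1b3 (0.066) and Tspan12 (0.067). Nearest to Egr1 were Lmo7 (0.047), the Kruppel-like factor gene Klf6 (0.054) and Mtch1 (0.062). Klf6, itself counted among the other immediate early genes, was called higher (0.39 ± 0.12, limma adjusted p = 0.048), a call lost without any single embryo except wild type embryo 2 (adjusted p from 0.062 to 0.14) and after median scaling (0.27, adjusted p = 0.13), or in 10 of 16 alternatives. The nearest genes were Ubqln1 (0.020), Arf4 (0.037) and Ranbp9 (0.041) for Jun, and Reg3b (0.043), Cd74 (0.055) and Rap2b (0.061) for Junb. Btg2 had no neighbour as near, with Rbm6 (0.085), Zbtb14 (0.090) and Fem1a (0.090) first. None of the 3 genes nearest to each of these members was another of the 10. Only tested genes could be neighbours, so Fos and Jun could not appear among them.

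**Figure D4:**
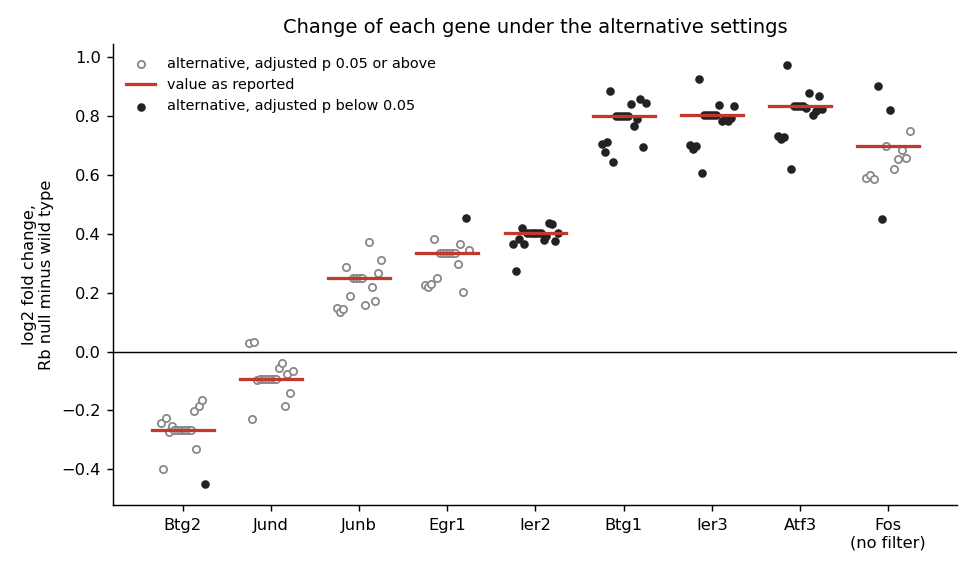
Log2 fold change (Rb null minus wild type) of each member under the alternative settings, with filled points for an adjusted p below 0.05, open points otherwise, and a red bar for the value as reported; Fos is shown without the filter. Every point of Btg1, Ier3, Atf3 and Ier2 is filled, whereas most points of Fos are open and those of Jund lie on both sides of 0.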

How the data were processed

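RNA of 3 Rb null and 3 wild type fetal livers was labelled from 6 ug of total RNA, 1 array per embryo. The authors computed the deposited intensity values with MAS5, per the submitters' processing notes, whose version and scaling target are not given in the sources used here. The deposited values are linear, and their 2% trimmed means are equal between arrays. Of 12488 probe sets 66 are controls and were left out. Of the rest 10833 have 1 symbol in the platform annotation, 396 several and 1193 none.

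Before log2, 50.02 (0.1 of the trimmed mean) was added to each signal, and probe sets with a mean above 150.1 (0.3 of it) were tested with limma 3.58.1 in R 4.3.3 (intensity trend, Benjamini-Hochberg adjustment over 6793 probe sets, threshold 0.05). The procedure was tested on simulated data. The number of arrays limits the precision. All member probe sets were named, and from each list the called genes of largest change (at most 4), or the 2 genes of smallest p if under 2 were called. Atf4, Klf6, Map2k2, Map2k6 and Hspa8 are outside the latter rule, as are the named cell type markers. The members and lists were chosen with earlier results of these data known. Alternatives were other normalizations, offsets, filters and variance models, a replicate block, no suffixed probe sets and leaving out each embryo.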

Additional observations from a re-analysis of the deposited data

How the results depend on the processing

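Calls of Atf3, Ier3, Btg1 and Ier2 kept their direction and passed under every alternative in which they could be tested. With the stricter filter of 500.2 only Ier2 of them remained testable, so 1 member was called higher, and without suffixed probe sets Atf3 and Junb were not tested. Leaving out single embryos gave 4 to 5 members higher and 0 to 1 lower. Jund turned to 0.027 after quantile normalization and 0.032 after cyclic loess. Over all probe sets 867 were higher and 617 lower. Median scaling lowers the Rb null arrays relative to the wild type arrays, whose medians were lower. It gave 479 and 1363, with the median of all tested at -0.10 against 0.02. The stricter filter gave 513 higher. Leaving out single embryos gave 517 to 706 higher and 319 to 528 lower. The cause of these shifts in the counts was not tested, beyond this scaling and the smaller number of probe sets or arrays that a filter or a left-out embryo leaves. The replicate number was not taken as a pairing of the arrays. Same-numbered arrays had correlations of deviations of -0.062, 0.049 and 0.27, the last being the highest of all pairs. Rb null embryo 1 correlated best with wild type embryo 2 (0.22). So few arrays cannot decide whether they were paired. With the replicate block 813 probe sets were higher and 606 lower, and 4 members were higher and 0 lower. Fos without the filter had an adjusted p = 0.061 with the block. The alternatives for Fos without the filter were chosen after seeing the data. The 3 embryos per genotype and the dim signals of Fos and Jun limit what can be resolved.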
